A study of Mus musculus with 3 samples.

Results

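The miRNA family of miR-28a, miR-151 and miR-708 was followed in exosomes, small membrane vesicles that cells release, shed by mouse bone-marrow-derived macrophages. It consists here of 3 hairpins, miR-28a, miR-151 and miR-708, and of the 2 mature strands that each hairpin can give, the 5p arm from the side nearer its 5′ end and the 3p arm from the side nearer its 3′ end. The 6 arms are mmu-miR-28a-5p, mmu-miR-28a-3p, mmu-miR-151-5p, mmu-miR-151-3p, mmu-miR-708-5p and mmu-miR-708-3p, written without the prefix for mouse from here on. They were taken by name from the 1915 mature miRNAs listed for each library, with earlier results of these data known. All 6 were present in all 3 libraries. There was 1 group of 3 libraries, called libraries 1, 2 and 3 after their replicate numbers. The cells came from femurs and tibias of adult wild type C57BL/6 mice, were grown with the macrophage growth factor M-CSF for 24 h, and then shed exosomes into medium with 10% serum freed of exosomes for 72 h before ultracentrifugation. Neither a treated group nor the parent cells were compared, and no label ties the libraries to separate cultures or animals. SDs and the p-values of the edgeR test therefore cover the spread over these libraries alone, and that spread may be technical. The chi-square and exact tests below allow for counting error only.

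A miRNA is cut from a folded precursor as a short duplex, and usually one of its strands is kept by an Argonaute protein while the other is lost. The kept strand finds its target mRNAs mainly through its seed, so the arms of one hairpin have different targets. The family is known for its origin: its hairpins are thought to descend from inverted copies of LINE2, an ancient retrotransposon that no longer moves. MiR-28 is known as a brake on B-cell growth and on the thrombopoietin receptor. MiR-151 has been studied for its part in cell migration, alongside the focal adhesion kinase whose gene hosts it. MiR-708 is known as a miRNA induced by the stress factor CHOP (Ddit3) when the endoplasmic reticulum is overloaded.

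Sequences were matched for 4 of the 6 arms, and none for the miR-151 arms. They are shown for the likeness between miR-28a and miR-708, while the arm comparisons below use counts only. The likeness of the miR-151 arms to these was not compared, so miR-708 is not shown to be the nearest relative of miR-28a. They are RefSeq entries on the mouse build GRCm38.p6, written 5′ to 3′, with the seed (bases 2 to 8) in capitals.
miR-28a-5p: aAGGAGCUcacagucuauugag
miR-708-5p: aAGGAGCUuacaaucuagcuggg
miR-28a-3p: cACUAGAUugugagcugcugga
miR-708-3p: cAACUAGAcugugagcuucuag
miR-28b: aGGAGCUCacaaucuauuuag
The 5p arms of miR-28a and miR-708 had the same seed, AGGAGCU, and no other of the 1623 mature miRNAs of the table with a sequence had it. Counted from base 1 and with miR-28a-5p as the reference, these arms were identical at 16 of 22 positions and differed in their first 17 bases only by C9U and G13A. The 3p arms had different seeds, because the like stretch starts 1 base later in miR-708-3p. Set against each other with that offset, 17 of 21 bases were identical, and the longest shared run was the 8 bases UGUGAGCU. The seeds of miR-28a-3p and miR-708-3p were each the seed of no other such miRNA. MiR-28b, a close relative, carries from its base 1 the run of 11 bases that miR-28a-5p carries from its base 2. Neither miR-28b nor miR-28c, the other listed relative, had any count in the 3 libraries, which allows up to 0.997, 1.20 and 0.935 counts per 1000000 miRNA counts (CPM) in libraries 1, 2 and 3 (3 counts per library).

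Each hairpin lies inside an intron of a protein-coding gene, on the strand of that gene (GRCm38, GENCODE). Mir28a is on the plus strand of chromosome 16, from 24827855 to 24827940, within Lpp, a gene for a protein of cell adhesion sites. Its 5p arm spans 24827868 to 24827889 and its 3p arm 24827908 to 24827929. Mir151 is on the minus strand of chromosome 15, from 73254815 to 73254882, within Ptk2, which encodes focal adhesion kinase, and also within an intron of the antisense gene 1700085D07Rik on the other strand. Mir708 is on the plus strand of chromosome 7, from 96249424 to 96249532, within Tenm4, which encodes a teneurin, a large transmembrane protein. Its 5p arm spans 96249450 to 96249472 and its 3p arm 96249496 to 96249517. The 3 hairpins thus lie in 3 different genes on 3 chromosomes, and whether they were transcribed with those genes was not measured.

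In libraries 1, 2 and 3, mature miRNAs received 3008995, 2489984 and 3208617 counts. Of the 1915 miRNAs, 886 were counted at least once. Levels are given in CPM. A count here is a whole short strand, so levels need no correction for length, but ligation and PCR can favour some strands, which was not measured. Wilson 95% intervals and the limits for a count of 0 cover counting error only. Library 1 stood apart from the others over the whole table. A chi-square test of each miRNA's 3 counts against the library totals called 318 of 353 miRNAs different among libraries (90.1%, Benjamini-Hochberg adjusted p below 0.05), and 177 of 288 without library 1. Each of the 6 miRNAs fixed as markers of macrophages and other myeloid cells had at least 10 counts in every library. They summed to 71162, 344914 and 300101 CPM, nearly all of it miR-21a-5p and miR-146a-5p. The rest were far lower. MiR-223-3p stood at 35.6, 52.6 and 33.0 CPM, and miR-142a-3p at 42.9, 1364 and 819 CPM. MiR-142a-5p stood at 292, 818 and 390 CPM, and miR-155-5p at 74.8, 2388 and 829 CPM. Of 10 markers of other sources (liver, erythroid, epithelial, stromal, endothelial and neuronal), 9 had at least 10 counts in every library. They summed to 719, 998 and 1843 CPM, while the neuronal miR-124-3p was at 0 in all. The highest of these 10 was the liver miRNA miR-122-5p, at 322, 548 and 1500 CPM, above miR-223-3p in every library. The part of such sources in the values below was not tested.

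The family's level was almost wholly that of a single strand, miR-151-3p. The 6 arms together took 0.709% ± 0.288 of miRNA counts (SD, n = 3). By library these shares were 0.707%, 0.423% and 0.998%. MiR-151-3p made up 97.5%, 92.1% and 97.9% of the family's counts in these libraries. It stood at 6900, 3893 and 9767 CPM. Its mean was 6853 ± 2937 CPM (SD, n = 3). That placed it 26th of all miRNAs by the mean, and 25th, 33rd and 20th in the single libraries. Library 3 was the highest and library 2 the lowest, 2.51-fold apart. Of the 15 miRNAs with a mean within 2-fold of it, 46.7% varied less between libraries, so its spread was ordinary for its level. The miRNAs ranked just above it were miR-20a-5p, at a mean of 8447 CPM, and miR-183-5p, at 8086 CPM, and those just below were miR-191-5p, at 5969 CPM, and miR-532-5p, at 5746 CPM. Each of these 4 gaps was smaller than the SD of the miRNA or of its neighbour, so the place of miR-151-3p among them was not resolved.

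**Figure D1:**
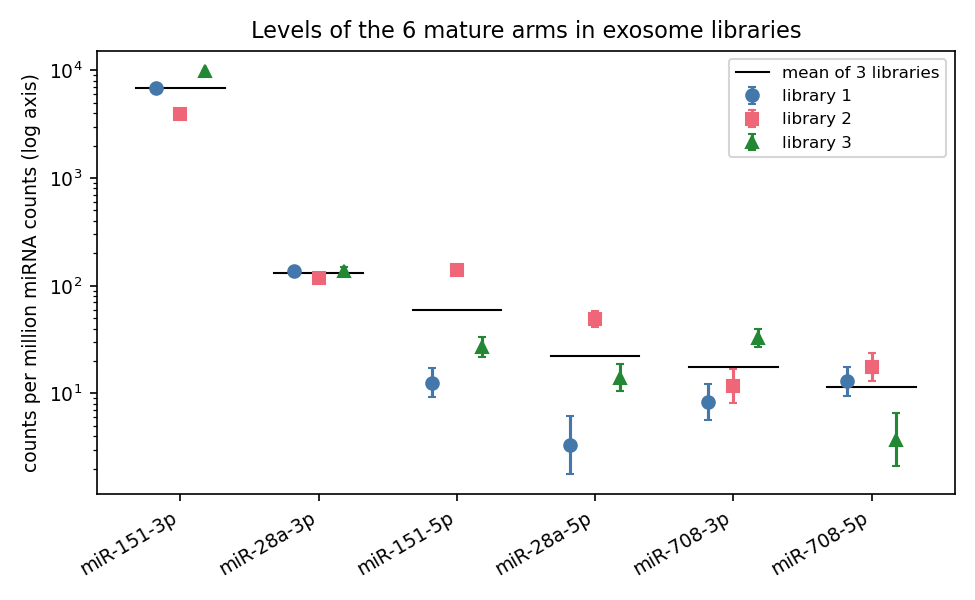
Levels of the 6 arms in CPM on a log axis, ordered by their mean (black line), with 1 point per library and Wilson 95% intervals of counting error. MiR-151-3p lies far above the other arms, the 3 points of miR-28a-3p nearly coincide, and the 5p arms of miR-151 and miR-28a are both highest in library 2.

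The other 5 arms summed to 174, 335 and 213 CPM. MiR-28a-3p, the strand of the miR-28a hairpin that has been tied to other targets than its 5p partner, was the next most abundant at 137, 117 and 136 CPM. Its mean was 130 ± 11.0 CPM (SD, n = 3), 123rd of all miRNAs. It was the steadiest of the 6 arms, and its highest library was 1.16-fold above its lowest. Only 2 of the 48 miRNAs with a mean within 2-fold of it varied less, and the median among those 48 was 3.79-fold. It was also the single arm of the 6 that did not pass the chi-square test of a difference among libraries (adjusted p = 0.0913, with counts of 411, 292 and 437). This steadiness holds for scaling to miRNA totals. TMM factors shift the log2 ratio of library 1 over library 3 by -0.86, and that over library 2 by -0.61, for all miRNAs alike. Scaling with them gave a 1.81-fold spread with library 1 lowest and an adjusted p of 4.0e-17. DESeq2 size factors gave 1.83-fold and 9.5e-18, and the denominators of the authors' RPM gave an adjusted p of 2.4e-07.

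The 5p arms of miR-151 and miR-28a, but not that of miR-708, followed a common order, highest in library 2 and lowest in library 1. This order was not particular to them. The myeloid markers miR-21a-5p, miR-142a-3p, miR-142a-5p and miR-155-5p had it too, while miR-146a-5p and miR-223-3p did not. The share of all miRNAs with this order was not counted. MiR-151-5p, the strand studied for cell migration, stood at 12.6, 139 and 27.1 CPM in libraries 1, 2 and 3 (counts of 38, 347 and 87). MiR-28a-5p, which shares its seed with miR-708-5p, stood at 3.32, 49.0 and 14.0 CPM (counts of 10, 122 and 45). Both were highest in library 2, lowest in library 1, and spanned 11.0-fold and 14.7-fold, also the order and the direction under TMM factors, DESeq2 size factors and the denominators of the authors' RPM. Their spread was wide for their level. Of the miRNAs with a mean within 2-fold, 94.5% of 55 varied less than miR-151-5p and 95.7% of 92 varied less than miR-28a-5p. The means, 59.7 ± 69.4 CPM for miR-151-5p and 22.1 ± 23.9 CPM for miR-28a-5p (SD, n = 3 each), rested on library 2, without which they were 19.9 and 8.67 CPM. The handling of reads that match several miRNAs is not known. Whether some reads were counted for both of these arms was not tested.

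MiR-708 was the scarcest hairpin, at 28.9 ± 7.45 CPM for both arms together (SD, n = 3). MiR-708-5p stood at 13.0, 17.7 and 3.74 CPM, from counts of 39, 44 and 12. MiR-708-3p stood at 8.31, 11.6 and 32.4 CPM, from counts of 25, 29 and 104. The arms thus ran in opposite directions, with 5p lowest and 3p highest in library 3. Their Wilson intervals in library 3, 2.14 to 6.54 CPM for 5p and 26.8 to 39.3 CPM for 3p, did not overlap those in libraries 1 and 2. The mean of miR-708-3p, 17.5 ± 13.1 CPM (SD, n = 3), was 9.98 CPM without library 3. The means of miR-708-5p, 11.5 ± 7.09 CPM (SD, n = 3), and of miR-708-3p were below that of miR-28a-5p, but in library 1 both lay above it and in library 3 miR-708-3p did.

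In all, 5 of the 6 arms passed the chi-square test of a difference among libraries, beside 90.1% of the miRNAs tested, so the count by itself does not set the family apart. The chi-square statistic on 2 degrees of freedom was largest for miR-151-3p, at 6842, and the adjusted p was 8.8e-103 for miR-151-5p, 7.5e-33 for miR-28a-5p, 4.9e-13 for miR-708-3p and 2.2e-06 for miR-708-5p. Both miR-708 calls rested on library 3 and were lost without it, with adjusted p of 0.231 for the 3p and 0.172 for the 5p arm. The order of levels was firm only at its top. MiR-151-3p lay above miR-28a-3p by 50.5-fold, 33.2-fold and 71.7-fold in libraries 1, 2 and 3, and no range of values overlapped between them. MiR-28a-3p was above miR-151-5p in 2 of 3 libraries. The ranges of miR-151-5p, miR-28a-5p, miR-708-3p and miR-708-5p overlapped between neighbours in that order.

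**Figure D2:**
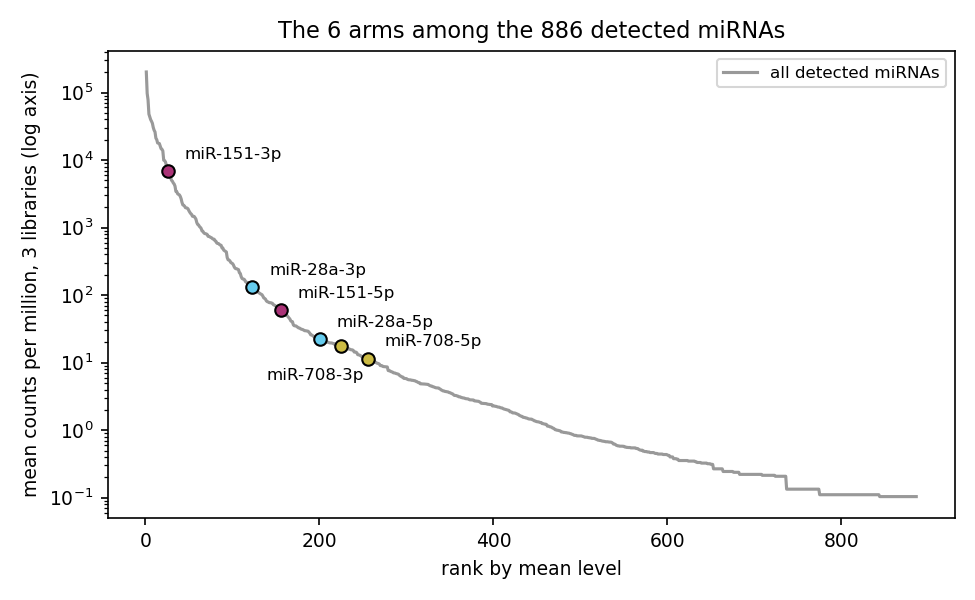
Mean CPM over 3 libraries on a log axis against rank, for the 886 detected miRNAs (line) and the 6 arms (points). MiR-151-3p is 26th, miR-28a-3p 123rd, and the other 4 arms lie between ranks 156 and 256.

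The strands with one seed were carried by different hairpins in different libraries. The seed AGGAGCU, read from miR-28a-5p and miR-708-5p together, stood at 16.3, 66.7 and 17.8 CPM. MiR-28a-5p had 0.256, 2.77 and 3.75 counts for each count of miR-708-5p, so miR-708-5p was the larger source in library 1 and miR-28a-5p in libraries 2 and 3. With 10 counts of miR-28a-5p in library 1 and 12 of miR-708-5p in library 3, these ratios are coarse.

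Whether the 3p or the 5p strand prevailed was compared within each library, which does not depend on scaling. Counts of the miR-151 hairpin in these exosomes were almost all of its 3p arm. There were 546, 27.9 and 360 counts of 3p for each 5p count in libraries 1, 2 and 3. Counts of the miR-28a hairpin were also mostly 3p, with ratios of 41.1, 2.39 and 9.71. The miR-708 hairpin had ratios of 0.641, 0.659 and 8.67, so that its 5p arm was ahead in libraries 1 and 2 and its 3p arm in library 3. The edgeR quasi-likelihood test, with library as a block and Benjamini-Hochberg adjustment over 157 hairpins, gave a log2 ratio of 3p to 5p of 7.62 for miR-151 (SE 1.09, adjusted p = 5.4e-11), higher in 3 of 3 libraries. For miR-28a the log2 ratio was 3.24 (SE 1.05, adjusted p = 0.0032), again higher in 3 of 3 libraries. For miR-708 it was 0.48 (SE 1.13, adjusted p = 0.704) and did not pass. A 3p arm called higher was common: 61 of the 157 hairpins tested (38.9%) passed in that direction and 65 (41.4%) in the other. Without library 3 the miR-28a call was lost (adjusted p = 0.080 at a log2 ratio of 3.23), and the sign for miR-708 turned, to -0.62.

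Ranked by the mean log2 ratio of 3p to 5p among the 104 hairpins with both arms counted in every library, miR-151 was 9th, miR-28a 26th and miR-708 43rd. The median hairpin leaned the other way, with log2 ratios of -0.36, -1.09 and -1.03 in libraries 1, 2 and 3. The place of miR-708 is that of a mean over libraries that leaned opposite ways, with 39.1%, 39.7% and 89.7% of its counts from the 3p arm in libraries 1, 2 and 3.

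**Figure D3:**
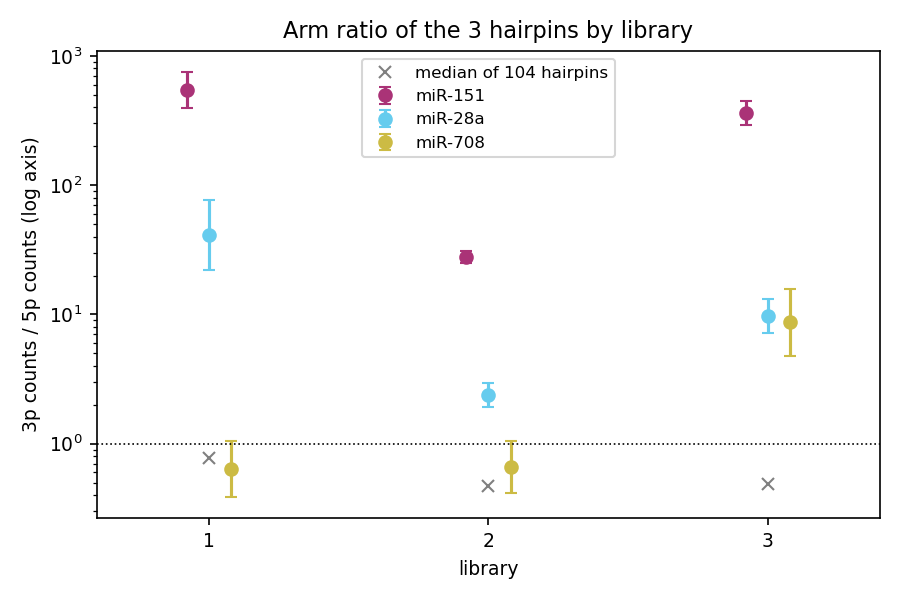
Counts of the 3p arm per count of the 5p arm on a log axis, by library, for the 3 hairpins with Wilson 95% intervals of counting error, and the median of 104 hairpins (crosses). The dotted line marks equal arms: miR-708 lies on its lower side in libraries 1 and 2 and above it in library 3, and the other hairpins have their lowest ratio in library 2.

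The share of each hairpin's counts that came from the 5p arm differed among the libraries for all 3 hairpins. For miR-28a the 5p arm took 2.38% (Wilson 95% interval 1.30 to 4.32), 29.5% (25.3 to 34.0) and 9.34% (7.05 to 12.3) in libraries 1, 2 and 3. For miR-151 it took 0.183% (0.133 to 0.251), 3.46% (3.12 to 3.83) and 0.277% (0.225 to 0.341). For miR-708 it took 60.9% (48.7 to 71.9), 60.3% (48.8 to 70.7) and 10.3% (6.02 to 17.2). The intervals of miR-28a did not overlap between any libraries, those of miR-151 set library 2 apart, and those of miR-708 set library 3 apart. Tests of the table of arm by library gave adjusted p of 4.1e-31 for miR-28a and 4.2e-16 for miR-708 (exact Fisher test) and 4.4e-251 for miR-151 (chi-square). Of all 157 hairpins, 59.2% were called by the same test, and 43 of 142 were without library 1. The 157 include hairpins with 1 arm at 0 in every library, which could not be called. The 59.2% therefore understates the share among hairpins that could be. The tests compare these 3 libraries and not conditions. Without library 2 the miR-151 call was lost (adjusted p = 0.0678), and without library 3 the miR-708 call was (adjusted p = 1.00), whereas miR-28a passed without any one library.

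The spans between libraries were wider than those of most hairpins. Between its highest and lowest library the ratio of 3p to 5p changed 17.2-fold for miR-28a, 19.6-fold for miR-151 and 13.5-fold for miR-708, where the median of the 104 hairpins was 4.87-fold. A wider span was seen for 16, 12 and 23 of them. The 16 include miR-151, and the 23 include miR-151 and miR-28a. The ratios of miR-708 rest on 12 to 104 counts an arm. MiR-28a and miR-151 had the same order, lowest in library 2 and highest in library 1, which 29 of the 104 hairpins (27.9%) had. The dominant arm changed between libraries in 18 of the 104 (17.3%), and miR-708 was the one member of the family among them.

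Between libraries 2 and 3, the pair with the fewest miRNAs called different (177 of 288), all 3 hairpins stood further towards 3p in library 3. The log2 ratio of 3p to 5p was higher there by 3.72 for miR-708, 3.69 for miR-151 and 2.02 for miR-28a, against a median of 0.22 over the 104 hairpins, of which 56.7% were higher in library 3. No hairpin showed a larger difference than miR-708, and only miR-708 itself did than miR-151. For miR-28a 6 hairpins showed a larger one, miR-708 and miR-151 among them. This pair of libraries was singled out after the values were seen. In the other pairs the family did not move as one. From library 1 to library 2 the log2 ratio was lower by 4.10 for miR-28a and by 4.29 for miR-151 but differed by 0.040 for miR-708, beside a median of -0.87. From library 1 to library 3 the differences were -2.08 for miR-28a, -0.60 for miR-151 and 3.76 for miR-708, beside a median of -0.75.

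**Figure D4:**
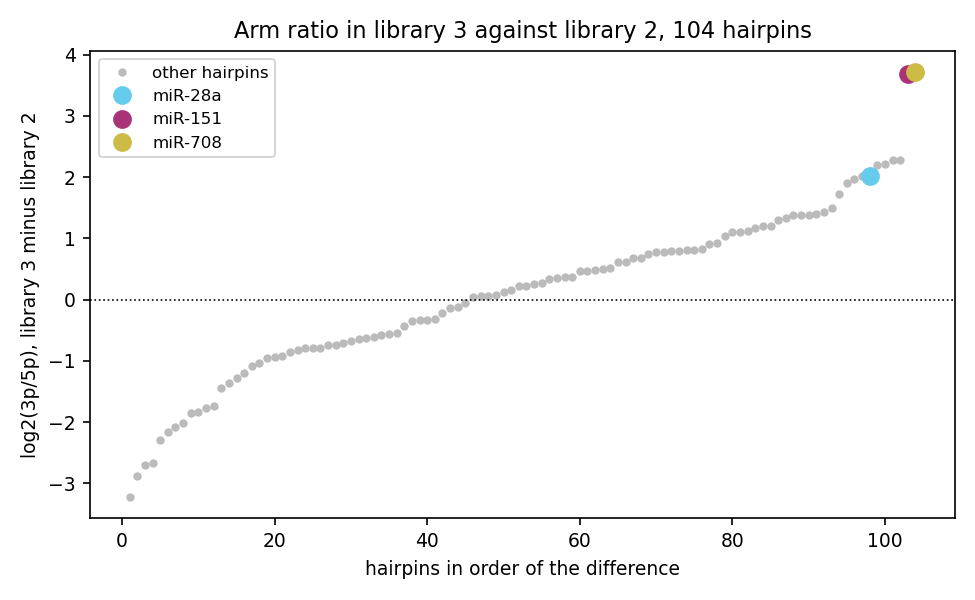
Difference in log2(3p/5p) between libraries 3 and 2 for 104 hairpins with both arms counted in every library, in ascending order. MiR-708 (3.72) and miR-151 (3.69) are at the right end and miR-28a (2.02) is near it, while the other hairpins spread to both sides of the dotted line at 0.

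Other miRNAs that surveys of repeats have assigned to LINE2 were scarcer than miR-151-3p. Of 14 such arms listed (of miR-95, miR-325, miR-370, miR-374b, miR-374c, miR-421 and miR-493), 12 were in the table, 7 had a count in any library and 2 had at least 10 counts in each. Those were miR-374b-5p, at 108, 178 and 171 CPM, and miR-421-3p, at 232, 105 and 98.2 CPM. Their means, 152 and 145 CPM, lay close to that of miR-28a-3p. The median of the 12 list means was 0.537 CPM, beside 0 over all 1915 miRNAs listed. In the chi-square test 2 of the 3 list members with enough counts were called, beside 90.1% of all. Of all 157 hairpins tested for their arms, 38.9% were called higher for 3p and 41.4% for 5p. Of the 7 hairpins of the list 2 were tested, and 1 was called higher for 3p (miR-421) and 1 for 5p (miR-374b). Their partner arms, miR-421-5p and miR-374b-3p, were at 0 in every library, so a fitted size of the difference depends on the prior count of the fit and is not given.

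A further list of 20 arms assigned to other transposable elements (of miR-224, miR-326, miR-330, miR-335, miR-340, miR-342, miR-345, miR-361, miR-378a and miR-652) was more abundant, with 13 members at 10 counts or more in every library and a median of list means of 56.9 CPM. One of the 20, miR-378a-3p, was above miR-151-3p by the mean, at 17704 CPM, though in library 3 it was lower, at 5288 CPM. Without library 1 it was below miR-151-3p by the mean too, at 5499 CPM beside 6830 CPM. Next came miR-340-5p, at a mean of 3054 CPM, miR-652-3p, at 463 CPM, and miR-361-3p, at 444 CPM. Then followed miR-361-5p at 250 CPM, miR-345-3p at 238 CPM, miR-326-3p at 169 CPM, miR-330-5p at 122 CPM, miR-342-3p at 107 CPM and miR-330-3p at 61.8 CPM. Several of these means rested on library 1, and without it they were 5499 CPM for miR-378a-3p, 138 CPM for miR-361-5p, 96.6 CPM for miR-345-3p, 32.4 CPM for miR-326-3p and 40.2 CPM for miR-330-3p. By the chi-square test 13 of 14 tested members were called, beside 90.1% of all miRNAs tested, so that count does not set the list apart. Of its 8 hairpins tested, 5 had the 3p arm called higher and 1 the 5p arm, beside 38.9% and 41.4% of all 157. Of its 7 hairpins with both arms counted throughout, 4 had a higher log2 ratio of 3p to 5p in library 3 than in library 2. Of all 104 such hairpins 56.7% did, so the count is near the share over all. In the list the log2 ratio was at most 1.39 higher in library 3, which is less than in any of the 3 family hairpins. This pair of libraries was singled out after the family's values were seen, so the contrast is a description only.

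The miRNAs whose pattern over the libraries was nearest to those of the abundant arms were sought among the 134 that averaged 100 CPM or more, by the root mean square difference of log2(CPM + 1) after centring each over its 3 libraries. Nearest to miR-151-3p was miR-10a-5p, at 10237, 5965 and 13658 CPM and a difference of 0.055, followed by miR-361-3p (0.20) and miR-106b-3p (0.21). Nearest to miR-28a-3p was miR-222-3p, at 5478, 4883 and 5991 CPM and a difference of 0.055, followed by miR-146a-5p (0.12) and miR-1843a-5p (0.13). With 3 libraries many patterns are alike, and these names are a description only. By level, the neighbours of miR-28a-3p were miR-222-5p (mean 138 CPM) and miR-674-5p (131 CPM) just above and miR-677-5p (129 CPM) and miR-132-3p (126 CPM) just below, none of them apart from it by as much as the larger SD.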

How the data were processed

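The authors deposited, per library, a whole-number count per mature miRNA and a normalized value in RPM. Reads were single-end, 50 bases. The submitters' processing notes name bcl2fastq, BWA and the build mm10 and give no versions. Trimming, mismatch limits and the handling of reads that match several miRNAs are not given in the sources used here. The deposited RPM is the count per 1000000 of 14047692, 13995845 and 14002577 in libraries 1 to 3, of which miRNA counts are 21.4%, 17.8% and 22.9%. Counts were therefore scaled to miRNA totals (CPM), and the RPM denominators were an alternative chosen after seeing the data.

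Chi-square tests covered miRNAs whose counts summed to 30 or more. Arm tests (edgeR 4.0.16, glmQLFit and glmQLFTest, library sizes equal to miRNA totals, terms library and arm) covered hairpins with both arms listed and a summed count of at least 60. SEs are the log2 ratio over the square root of F. The arm-share test was exact where the minor arm had at most 300 counts. All were tested on simulated data. For the chi-square and arm-share tests these held counting error only, so they do not cover further spread between libraries. The chi-square test called 69.5% of 200 miRNAs changed 1.5-fold in 1 library, and 3 of 153 unchanged. The arm-share test called 60% of 60 hairpins with odds changed 3-fold in 1 library, and 2 of 97 unchanged. In the simulation of the edgeR arm test, of 157 hairpins, 15% of 20 differing 4-fold and 80% of 20 differing 16-fold were called. Of 97 unchanged hairpins 1.03% were called. The arms were drawn independently, with the same fixed dispersion for every hairpin and means raised by a constant. These rates hold for that setting only. Alternatives used DESeq2 1.42.0. The members and lists were chosen with earlier results of these data known. Named miRNAs were the 6 members, their seed relatives, list members with at least 10 counts in every library (at most 10 per list) and the nearest by pattern and rank. The labels give 1 group, so no conditions were compared. A paired fit between groups did not apply.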

Additional observations from a re-analysis of the deposited data

How the results depend on the processing

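The summed level of the 6 arms, 7094 CPM, was 7510 with TMM factors, 7506 with DESeq2 size factors, 7372 with the RPM denominators, and 5651 to 8527 when one library was left out. The number of miRNAs that differed among libraries, 318, was 314 to 323 under the other scalings, 240 at a summed count of at least 100, 370 with no minimum, and 177 to 284 without one library. MiR-28a-3p was called under each other scaling (adjusted p from 9.5e-18 to 2.4e-07) but under no other alternative run. The number of hairpins with 3p called higher, 61, was 97 at a summed count of at least 10, where more hairpins were tested, and 48 to 58 without one library. With no replicate block, that is without the library term, it was 60, and the log2 ratio of 3p to 5p was 2.56 for miR-28a, 6.84 for miR-151 and 0.61 for miR-708, with no call changed. DESeq2 gave 3.26, 7.62 and 0.48, with the same calls. No paired analysis between groups was possible because the labels give 1 group.

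Leaving out one library gave log2 ratios of 2.24 to 4.28 for miR-28a (adjusted p from 4.0e-04 to 0.080), 6.63 to 8.79 for miR-151 and -0.62 to 1.22 for miR-708. The sign for miR-708 turned without library 3, the one library in which its 3p arm was ahead. The number of hairpins whose arm share differed, 93, was 43 to 76 without one library. The adjusted p of that test ranged without one library from 3.9e-29 to 3.1e-05 for miR-28a, from 7.6e-162 to 0.0678 for miR-151 and from 4.1e-12 to 1.00 for miR-708. Depth limits miR-28a-5p, with 10 counts in library 1, and both miR-708 arms, with 12 to 44 counts for 5p and 25 to 104 for 3p.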
